A study of Homo sapiens with 8 samples.

Results

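Collagen chain genes are protein-coding genes whose symbol is COL followed by a type number, the letter A and a chain number. The rule found 44 genes among the 57736 Ensembl gene IDs of the count tables, and it used no measured value. Collagens are extracellular matrix proteins built from 3 polypeptide chains wound into a triple helix. Their chains are hydroxylated and folded in the endoplasmic reticulum, secreted as procollagen, trimmed of their propeptides and crosslinked. Fibrillar types form the tensile fibrils of lung interstitium, type IV forms the network of basement membranes, and other types link fibrils to each other or to cells. Fibroblasts are the main source of fibrillar collagen in lung.

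The genes were read in IMR90, human fetal lung fibroblasts, in 8 libraries from 2 experiments. The first was RNA-seq of 1 control library (Ctrl) and 1 library with knockdown (KD) of ADAR1, the RNA editing enzyme encoded by ADAR, which turns adenosine into inosine in RNA duplexes. The second was RNA immunoprecipitation with an antibody against HuR, the protein encoded by ELAVL1 that binds U-rich and AU-rich stretches of mRNA. There were 3 lines, labelled shControl, shADAR1 and shHuR, with 1 HuR precipitate and 1 input from each. The labels name 1 cell line and no clone, vector, passage or time for any group, and no mock precipitate was analysed here.

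Each group held 1 library, so a difference between a pair of libraries has no replicate check. Such a difference is given as a log2 ratio of scaled counts with a 95% interval that covers counting error only. A gene was called higher or lower at a difference of at least 2-fold with at least 50 counts in one library of the pair. In bulk libraries, fewer cells that make a chain and less of its mRNA per cell cannot be told apart. Library totals ran from 28390935 to 50711218 counts, and the collagen genes took between 0.350% (shControl precipitate) and 1.11% (shADAR1 input) of them. ADAR went from 7732 counts to 1445 in the RNA-seq pair, a log2 ratio of -2.81, and had 12890 and 3142 in the shControl and shADAR1 inputs (-1.56). ELAVL1 had 4806 counts in the shControl and 674 in the shHuR input (-2.73). All 10 fibroblast markers had 50 or more counts, with a summed level of 5713 to 10732 CPM (counts scaled to a common library size) over the RNA-seq and input libraries. Epithelial markers summed to 0.918 to 15.3 CPM, with KRT5, SFTPC and NKX2-1 at 0 counts. CLDN4 had 427 and 675 counts and EPCAM 136 and 103 in control and knockdown of the RNA-seq. Endothelial markers summed to 20.9 to 89.4 with CDH5 at 0, while TEK had 2046 and 3930 counts and KDR 74 and 538 in that pair. Leukocyte markers summed to at most 47.3 with CD3E at 0, while CD68 had 1728 and 2393 counts there. CD14 had 1, 152 and 15 counts in the inputs of shControl, shADAR1 and shHuR. Smooth muscle markers summed to 105.1 to 218.9 CPM and chondrocyte markers to 21.4 to 92.2.

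Of the 44 genes, 29 had at least 50 counts in at least 1 library. By role, these were 9 of 11 fibrillar chains, 4 of 6 basement membrane chains and 3 of 5 chains of the type VI beaded filaments. They also included COL7A1, the anchoring fibril chain, 2 of 3 hexagonal network chains and 4 of 10 fibril-associated chains. The rest were both multiplexins (COL15A1 and COL18A1), 3 of 4 transmembrane collagens, and COL28A1. The other 15 genes never passed 29 counts (COL8A2 in the shControl input). COL6A5 and COL23A1 were at 0 in every library. COL2A1, the main fibrillar chain of cartilage, reached 1 count.

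Levels were compared between genes as CPM divided by the transcript length in kilobases, which corrects for the length of the mRNA. In the RNA-seq control, the highest levels were 197.5 for COL1A2, 196.4 for COL6A3 and 145.0 for COL6A2, followed by COL4A1 at 123.1 and COL12A1 at 89.3. COL1A2 is the α2 chain of type I collagen, the bulk of most fibrils, and COL6A2 and COL6A3 are chains of the filaments around cells. In the shControl input, the levels of COL1A1 and COL1A2 led at 522.0 and 372.8, ahead of COL6A2 at 172.2, COL6A1 at 150.2 and COL6A3 at 98.2. COL4A1 stood at a level of 12.7 there, lower than COL5A1 (18.1) and COL4A2 (20.8). Both columns are controls of the same cell line, and COL1A1, COL4A1 and COL5A2 were among the genes whose place in the order differed. The experiments were deposited as separate tables, so levels are read within each.

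**Figure D1:**
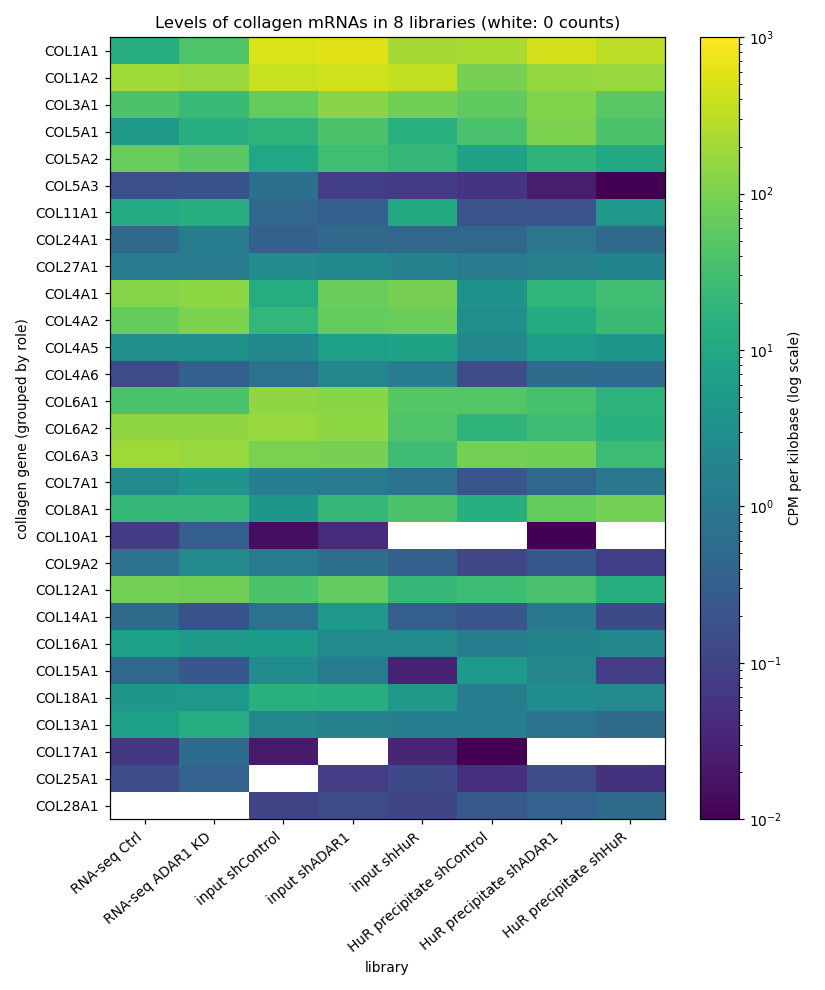
Level of each of the 29 collagen genes with at least 50 counts in a library (rows, grouped by role) in the 8 libraries (columns), as CPM per kilobase on a logarithmic colour scale, with white for 0 counts. The RNA-seq pair, the inputs and the precipitates were scaled separately, so colours are not to be compared between a precipitate and its input. COL1A1 is at 13.6 in the control of the RNA-seq and at 522.0 in the shControl input, while COL15A1 is near the bottom of the scale in the shHuR input (0.031).

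The ratio between chains that assemble together is free of library scaling. Type I collagen is mostly a trimer with more α1 than α2 chains, encoded by COL1A1 (ENSG00000108821, chr17:50183289-50201632, GENCODE 29, GRCh38) and COL1A2 (ENSG00000164692, chr7:94394561-94431232). Per kilobase, COL1A1 stood at 0.069 of COL1A2 in the control library of the RNA-seq and at 0.255 in its knockdown. The ratio was 1.40, 1.35 and 0.595 in the inputs of shControl, shADAR1 and shHuR. In the precipitates it was 2.46 (shControl), 2.77 (shADAR1) and 1.83 (shHuR). COL1A1 mRNA was thus far below COL1A2 in both RNA-seq libraries and above it in each precipitate and in the inputs of shControl and shADAR1.

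COL5A1 over COL5A2, which encode the α1 and α2 chains of type V collagen, gave 0.070 and 0.256 in control and knockdown of the RNA-seq. The same ratio was 1.92, 1.39 and 0.699 in the inputs of shControl, shADAR1 and shHuR. COL6A1 over COL6A2 was 0.268 and 0.258 in the RNA-seq libraries and 0.873, 0.909 and 1.14 in the inputs. COL4A1 over COL4A2, the pair of the common type IV trimer, went the other way by counts per kilobase. It was 1.86 and 1.38 in the RNA-seq libraries and 0.612, 1.09 and 1.27 in the inputs. By the deposited FPKM values, read below, it was 0.820 and 0.462 in control and knockdown of the RNA-seq, so its direction there depends on the measure. By counts per kilobase, the chain with the higher GC content was the lower one in the RNA-seq libraries in 3 of these pairs. COL1A1 has 61.1% GC against 54.8% in COL1A2, COL5A1 60.3% against 48.0%, and COL4A2 62.0% against 55.4% in COL4A1. By FPKM the type IV pair was not among them, as COL4A2 was then the higher chain. In the type VI pair COL6A1 was the lower one with 63.5%, against 66.4% in COL6A2. The part of base composition in these ratios was not tested.

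**Figure D2:**
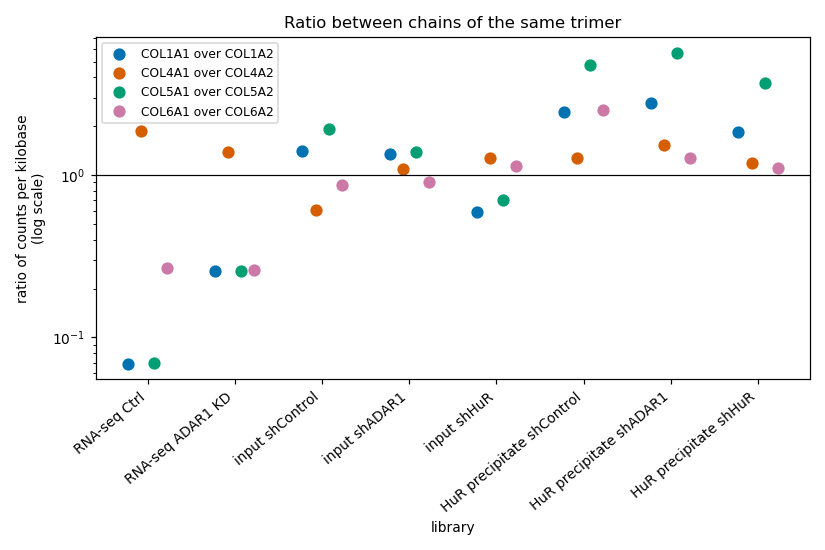
Ratio of counts per kilobase between chains of the same collagen type (vertical axis, log scale) in each of the 8 libraries (horizontal axis), 1 point a library. COL1A1 over COL1A2 is 0.069 in the control of the RNA-seq and 1.40 in the shControl input, and COL5A1 over COL5A2 is 0.070 and 1.92 in the same libraries.

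The deposited FPKM values, available for the RNA-seq libraries, put COL1A1 at 0.225 of COL1A2 in the control and 0.538 in the knockdown. The count and FPKM of COL1A1 in the control together imply an effective length of 1281 bases, or 19.0% of its 6727-base transcript in GENCODE 29. The median over 12159 genes with enough counts was 65.9%. In the knockdown the implied length of COL1A1 was 1768 bases (26.3%). COL1A2 stood at 62.1% and 55.5%, close to that median. RSEM scales FPKM by the lengths of the transcripts to which it assigns reads, and the transcript estimates behind these values were not analysed here. In control and knockdown, the implied length of COL4A2 was 41.1% and 31.5% of its transcript, and that of COL4A1 93.4% and 93.8%. Levels of COL1A1 and COL4A2 in the RNA-seq libraries therefore depend on the length used, as does the order of COL4A1 and COL4A2.

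RNA-seq after ADAR1 knockdown gave 8 collagen genes called higher and 1 called lower among 28 with enough counts. Over all 13235 genes, 8.31% were called higher and 7.71% lower. The median log2 ratio of the 28 was 0.09, against -0.01 over all genes. Of the 8 called higher, 4 (COL10A1, COL17A1, COL25A1 and COL4A6) reached 50 counts only in the knockdown library, so they could be called only as higher.

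Among fibrillar chains, COL1A1 had 3571 counts in the control and 14518 in the knockdown, 3.10-fold higher (log2 ratio 1.63, interval 1.58 to 1.69). COL5A1, a chain of the type V fibrils that set fibril diameter, had 1663 and 5727 counts, 2.63-fold higher (1.39, 1.32 to 1.47). COL24A1, a minor fibrillar chain, went from 133 to 463 counts (1.40, 1.13 to 1.70). The other abundant fibrillar chains did not share this direction. COL1A2 had 41621 and 45816 counts (-0.25), COL5A2 19939 and 18715 (-0.48), and COL3A1, the type III chain of reticular fibres, 8493 and 6525 (-0.77). The partner chains of types I and V thus differed in direction within the same pair of libraries.

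Type VI chains stayed under 2-fold, with log2 ratios of -0.04 for COL6A1 (6422 and 8157 counts), 0.01 for COL6A2 (19545 and 25770) and -0.22 for COL6A3 (82215 and 92538). Among basement membrane chains, COL4A1 (31724 and 47041 counts, 0.18), COL4A2 (16699 and 33494, 0.61) and COL4A5 (745 and 1022, 0.07) were not called. COL4A6 was called higher at 36 and 121 counts (1.32, 0.81 to 1.94). COL7A1, which anchors basement membrane to the matrix below, stood at 874 and 1899 counts (0.73), and COL13A1, a transmembrane collagen, at 824 and 2054 (0.93). Neither reached 2-fold.

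COL17A1, the transmembrane collagen of epithelial hemidesmosomes, went from 14 to 167 counts, the highest fold among the members from counts (8.21-fold; log2 ratio 3.04, interval 2.40 to 4.09). COL10A1, the chain of hypertrophic cartilage, had 10 and 58 counts (1.97, 1.17 to 3.28). COL9A2, a fibril-associated chain of cartilage, had 81 and 359 (1.74, 1.41 to 2.12), and COL25A1, a transmembrane collagen of neurons, 16 and 53 (1.25, 0.51 to 2.24). These are low levels. COL17A1 reached 0.575 CPM per kilobase in the knockdown, against 166.0 for COL1A2. The summed epithelial markers were 14.4 and 15.3 CPM in control and knockdown, and the chondrocyte markers 21.4 and 29.8. Of the chondrocyte markers, SOX9 had 638 and 1305 counts (0.64), MATN3 196 and 200, MATN1 1 and 4, and ACAN 3 in both.

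COL14A1, which binds to the surface of fibrils, was the one member called lower, with 133 counts in the control and 61 in the knockdown (-1.48, -1.98 to -1.07). COL15A1, a multiplexin between basement membrane and fibrils, had 98 and 64 (-0.98). COL16A1 had 1524 and 1440 (-0.47). COL8A1 (4688 and 6124 counts, 0.00), COL11A1 (3225 and 4992, 0.24), COL12A1 (40756 and 49978, -0.10) and COL18A1 (1001 and 1379, 0.07) lay close to 0. Abundant chains such as COL12A1 and scarcer ones such as COL18A1 were both among these. From the deposited FPKM values, COL10A1 had a higher log2 ratio (3.12) than COL17A1 (2.12). By the same values, COL24A1 (0.43), COL25A1 (0.39) and COL14A1 (-0.70) fell short of 2-fold, while COL7A1 (1.13), COL13A1 (1.15), COL4A2 (1.02) and COL15A1 (-1.10) passed it.

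In the inputs, 8 collagen genes were called higher and 3 lower in shADAR1 among 25 with enough counts. Over all 13192 genes, 8.94% were called higher and 10.6% lower. The median of the 25 was 0.18, against -0.04 over all genes. COL5A3 reached 50 counts only in shControl and could be called only as lower. All 4 basement membrane chains with enough counts were called higher. COL4A1 had 3188 counts in shControl and 12704 in shADAR1, 5.53-fold higher (log2 ratio 2.47, interval 2.41 to 2.52). COL4A2 had 5113 and 11481 (1.64, 1.59 to 1.69), COL4A5 525 and 1165 (1.62, 1.47 to 1.77), and COL4A6 182 and 346 (1.39, 1.14 to 1.67). The 2 pairs of genes lie head to head, so each pair is read outward from a shared stretch of DNA.

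COL8A1, a short-chain collagen of vessel walls and stroma, went from 894 counts to 3339 (2.37, 2.27 to 2.48). COL14A1 had 187 and 809 (2.57, 2.35 to 2.82), the highest ratio in this pair among members with enough counts and opposite to the RNA-seq ratio of -1.48. COL5A2 had 2517 and 5634 counts (1.63) and COL5A1 5795 and 9340 (1.16), so both type V chains were called here. COL3A1, at 14101 and 19366 counts (0.93), and COL12A1, at 16761 and 19857 (0.72), were under 2-fold.

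The lower members in shADAR1 were COL5A3, COL15A1 and COL16A1. COL5A3, a rarer type V chain, had 167 counts in shControl and 14 in shADAR1 (-2.96, -4.01 to -2.32). COL15A1 had 526 and 166 (-1.18, -1.45 to -0.94). COL16A1, a fibril-associated chain, had 1163 and 382 (-1.13, -1.30 to -0.97). COL1A1, at 132786 and 108169 counts (0.18), and COL1A2, at 76281 and 64439 (0.23), were not called, and neither were the type VI chains, which ran from -0.30 (COL6A2) to -0.06 (COL6A3).

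**Figure D3:**
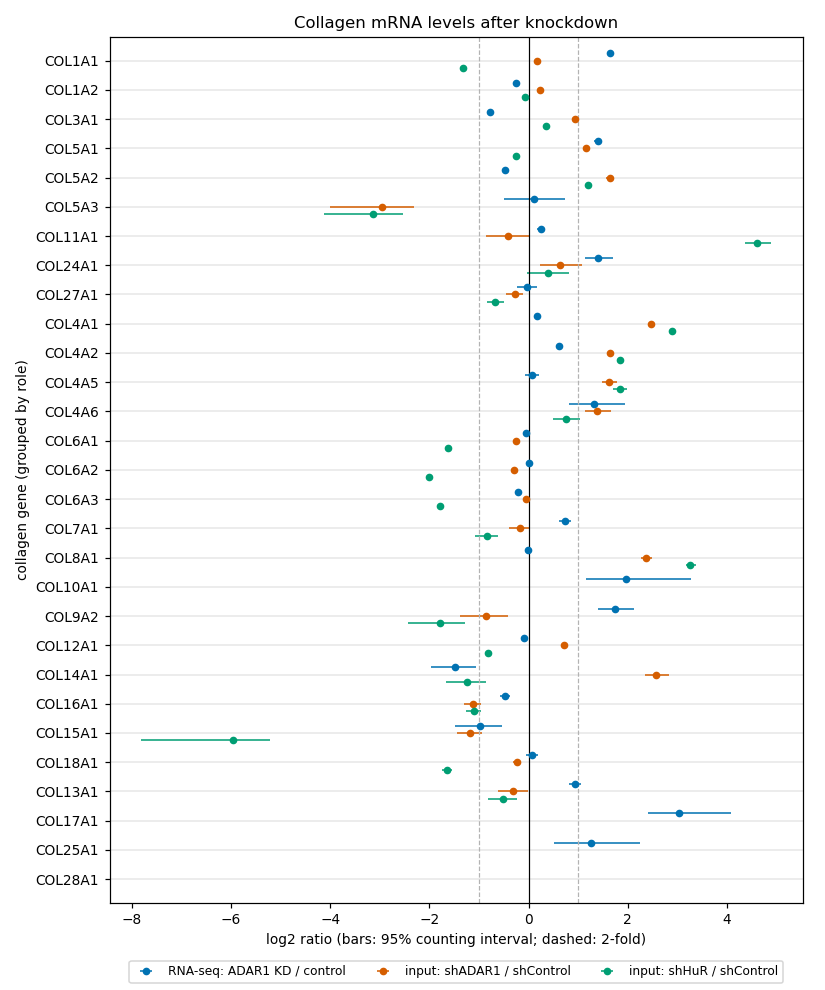
Log2 ratio of scaled counts (horizontal axis) for each collagen gene (rows) in the RNA-seq ADAR1 knockdown pair and in the shADAR1 and shHuR inputs against the shControl input, with 95% counting intervals and dashed lines at 2-fold, and no point where both libraries held under 50 counts. The type IV and COL8A1 points of both input pairs lie right of 0, from 0.75 to 3.26, while COL14A1 is at -1.48 in the RNA-seq pair and 2.57 in the shADAR1 input.

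Both ADAR1 pairs entered 1 test, edgeR's quasi-likelihood test with the experiment as block over 4 libraries. The labels do not say that libraries came from separate cultures, so its p-values measure the spread between these libraries. None of the 30 members tested passed an adjusted p of 0.05, and 3 had an unadjusted p under 0.05. By DESeq2 none passed either, with 6 under 0.05 unadjusted. Over all 15994 genes tested with edgeR, 0.0813% passed as higher and 0.0125% as lower, so few genes of any kind passed. COL5A1 had a log2 fold change of 1.28 (SE 0.44, edgeR adjusted p = 0.803), COL4A6 of 1.38 (SE 0.55, adjusted p = 0.973) and COL4A2 of 1.13 (SE 0.49, adjusted p = 0.980). COL5A1 and COL4A6 were called higher in both pairs, and the share of all genes called higher in both is not given here. The RNA-seq and input ratios side by side were 1.63 and 0.18 for COL1A1, 0.18 and 2.47 for COL4A1, and 0.00 and 2.37 for COL8A1.

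In the shHuR input, 6 members were called higher and 10 lower among 25 with enough counts. Over all 13390 genes, 12% were called higher and 15.9% lower. The median of the members was -0.67, against -0.03 over all genes. Of the 10 lower, COL5A3, COL9A2 and COL15A1 reached 50 counts only in shControl and could be called only as lower. This comparison uses the same shControl input as the shADAR1 one, so a value particular to that library enters both. Once trends over the GC content and length of transcripts were removed, 6 members were higher and 6 lower, against 13.1% and 13.3% of all genes, and the median was -0.09.

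COL11A1, a minor fibrillar chain best known from cartilage, had 124 counts in the shControl input, 67 in shADAR1 and 2843 in shHuR. It was 24.2-fold higher in shHuR (log2 ratio 4.60, interval 4.36 to 4.89), the highest ratio among the members, while the shADAR1 input stood at -0.41. COL8A1 reached 8021 counts (9.60-fold, 3.26), COL4A1 22067 (7.42-fold, 2.89), COL4A2 17022 (1.84), COL4A5 1754 (1.84) and COL5A2 5405 (2.30-fold). COL4A6 stood at 287 counts (0.75) and was not called.

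COL15A1 had the lowest ratio, with 526 counts in shControl, 166 in shADAR1 and 6 in shHuR, 62.1-fold lower than in shControl (-5.96, -7.81 to -5.22). The type VI chains were lower together in shHuR. COL6A1 had 24078 counts in the shControl and 7246 in the shHuR input (-1.63), COL6A2 22534 and 5199 (-2.01) and COL6A3 39908 and 10837 (-1.78). COL1A1 had 132786 and 49849 counts (-1.31, -1.33 to -1.30), while COL1A2 had 76281 and 67383 (-0.08). The type I chains thus lay apart in this pair.

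Lower in shHuR were also COL5A3 (16 counts, -3.14), COL9A2 (34, -1.79), COL18A1 (1009, -1.65), COL14A1 (73, -1.23) and COL16A1 (505, -1.10). COL18A1, whose C-terminal fragment is endostatin, shares 16.4% of its exon length with SLC19A1, and reads of the overlap cannot be assigned if strand was not used in counting. With the GC and length trends removed, COL1A1 (-0.81), COL6A1 (-0.99), COL18A1 (-0.85) and COL16A1 (-0.50) were no longer 2-fold lower, and COL6A2 stood at -1.21. DES, a smooth muscle marker, had 625, 30 and 7 counts in the inputs of shControl, shADAR1 and shHuR. The 4 smooth muscle markers together summed to 218.9, 149.2 and 148.7 CPM. The endothelial markers summed to 20.9, 73.7 and 37.3 CPM in the same inputs, with CDH5 at 0 and TEK at 641, 2049 and 1270 counts, so their sum, mostly from TEK, was higher in both inputs in which COL4A1 and COL4A2 were higher, while VWF had 70, 25 and 21 counts. The part of these markers in the collagen differences between inputs was not tested. The other named members stayed under 2-fold in both input comparisons. COL27A1, a minor fibrillar chain, had 774, 460 and 453 counts in the inputs of shControl, shADAR1 and shHuR, and 346 and 443 in the RNA-seq pair (-0.03). COL7A1 had 480, 305 and 249, COL13A1 249, 144 and 162, and COL24A1 89, 101 and 109 input counts, while COL12A1 had 8868 in shHuR (-0.82).

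The type IV genes are arranged in pairs that share a promoter region. COL4A1 (chr13:110148963-110307233, minus strand) and COL4A2 (chr13:110305812-110513209, plus strand) start back to back, as do COL4A6 and COL4A5 on the X chromosome, 346 bases apart, and COL4A4 and COL4A3 on chromosome 2, 111 bases apart. By the RefSeq promoter table (GRCh38.p14), 126 bases lie between the starts of COL4A1 and COL4A2, at chr13:110307158-110307283. They are shown because both genes were higher in both knockdown inputs, written on the plus strand, so that COL4A2 begins at the right end and COL4A1 is read leftward from the left end. Capitals mark CCAAT and GGGCGG, searched on both strands.

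COL4A1 to COL4A2: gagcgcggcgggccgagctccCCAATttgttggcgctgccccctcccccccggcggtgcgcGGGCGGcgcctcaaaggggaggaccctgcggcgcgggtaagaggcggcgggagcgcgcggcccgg

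This stretch has 80.2% GC and holds 1 CCAAT, 105 bases before the COL4A2 start, and 1 GGGCGG, 65 bases before it. It holds no TATAAA. Windows of the same length taken from 35116 promoters held CCAAT in 21.1%, GGGCGG in 34.6% and TATAAA in 5.87%. The letters are common and describe the window only. COL4A1 and COL4A2 were 5.53-fold and 3.11-fold higher in the shADAR1 input, and 7.42-fold and 3.57-fold higher in the shHuR input, so the ratio between them differed too (0.612 in shControl, 1.09 and 1.27). COL3A1 and COL5A2, which lie tail to tail on chromosome 2 with 19149 bases between them, were 1.90-fold and 3.10-fold higher in the shADAR1 input and 1.27-fold and 2.30-fold higher in the shHuR input.

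Recovery with the HuR antibody was read as precipitate over input of the same line. edgeR's quasi-likelihood test over the 3 lines, with the line as block, found 5 members higher and 10 lower in the precipitate among 28 tested. The lines include shHuR, in which ELAVL1 was lower in the input (-2.73). The test therefore reads recovery with the antibody across lines that differ in HuR mRNA, and whether recovery depends on HuR was not tested. Over all 16232 genes tested, 30.3% were higher and 31.3% lower. The median log2 fold change of the members was -0.49, against -0.11 over all genes. With scaling by total counts instead of TMM, which moves the median over all genes to -1.06, 2 members were higher and 21 lower. Of all 16232 genes, 2769 were then higher and 8287 lower. Directions below are therefore relative to the bulk of the genes.

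COL8A1 had 2344, 11871 and 10277 counts in the precipitates of shControl, shADAR1 and shHuR, against 894, 3339 and 8021 in the inputs. Its log2 fold change was 1.99 (SE 0.26, edgeR adjusted p = 0.000112), higher in 3 of 3 lines. COL5A1 had 9376, 27594 and 6870 counts against 5795, 9340 and 4518 (1.75, SE 0.25, adjusted p = 0.000193), also higher in 3 of 3. With scaling by total counts, these were the 2 members still higher.

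COL15A1 had 829, 329 and 9 counts in the precipitates and 526, 166 and 6 in the inputs (1.46, SE 0.35, edgeR adjusted p = 0.00447). COL28A1, a collagen of von Willebrand factor A domains, had 32, 52 and 47 counts against 17, 16 and 17 (2.15, SE 0.53, adjusted p = 0.00492), and 0 counts in both RNA-seq libraries. COL24A1 had 96, 201 and 74 counts against 89, 101 and 109 (0.98, SE 0.36, adjusted p = 0.0326). COL24A1 lost the call without the shControl line (1.01) and without the shADAR1 line (0.62), and COL15A1 without the shADAR1 line (1.42).

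Among the 10 lower members were 3 type IV and 2 type VI chains. COL4A1 had 745, 3922 and 4000 counts in the precipitates against 3188, 12704 and 22067 in the inputs (-1.29, SE 0.25, edgeR adjusted p = 0.00126). COL4A2 had 577, 2525 and 3293 against 5113, 11481 and 17022 (-1.77, SE 0.31, adjusted p = 0.000625). COL4A6 was lower too (30, 123 and 74 counts against 182, 346 and 287), while COL4A5 was not called (0.12). COL6A2 had 1896, 3029 and 1097 counts against 22534, 13158 and 5199 (-1.85, SE 0.35, adjusted p = 0.00108), and COL6A1 5865, 4715 and 1481 against 24078, 14645 and 7246 (-1.19). Their partner COL6A3 had 28841, 28546 and 5791 counts against 39908, 27562 and 10837 (0.36, adjusted p = 0.201). Chains of 1 filament thus differed in recovery.

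Type I chains differed as well. COL1A2 was lower in the precipitate (-0.97, SE 0.26, edgeR adjusted p = 0.00839), with 15419, 28657 and 18879 counts against 76281, 64439 and 67383. COL1A1 had 47133, 98639 and 43014 counts against 132786, 108169 and 49849 (0.18, SE 0.32, adjusted p = 0.633), and its ratio changed with the line. The other lower members were COL18A1 (-1.80), COL9A2 (-1.75), COL5A3 (-2.36) and COL14A1 (-1.30). Without the shControl line COL9A2 (-1.15), COL5A3 (-1.70), COL1A2 (-0.71) and COL4A6 (-0.94) lost the call, and without the shADAR1 line COL14A1 (-1.29) and COL4A6 (-1.42) did. COL3A1 (0.14), COL5A2 (-0.16), COL12A1 (-0.14) and COL27A1 (-0.01) were among the 13 not called.

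Line by line, 3 members were at least 2-fold higher and 12 lower in the shControl precipitate among 25, against 30.7% and 38.4% of all genes. Of these 12, COL5A3, COL9A2, COL4A6 and COL14A1 reached 50 counts only in the input and could be called only as lower. In shADAR1, 5 were higher and 7 lower among 25, against 30% and 37.5%, and COL28A1 reached 50 counts only in the precipitate. In shHuR, 3 were higher and 3 lower among 22, against 25.5% and 25.4%. The lowest member in the shControl line was COL18A1, with 225 counts in the precipitate and 3402 in the input (-3.12, -3.33 to -2.93), and the highest was COL8A1 (2.18, 2.07 to 2.29).

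**Figure D4:**
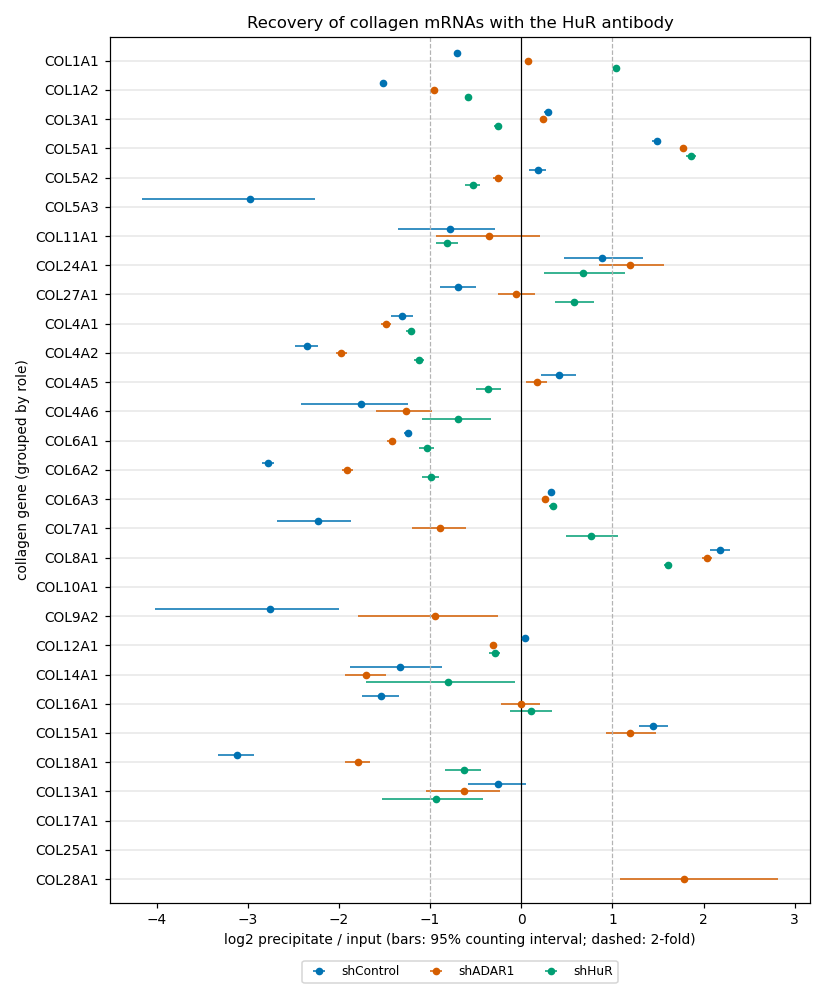
Log2 ratio of HuR precipitate to input (horizontal axis) for each collagen gene (rows) in shControl, shADAR1 and shHuR cells, with 95% counting intervals and dashed lines at 2-fold, and no point where both libraries held under 50 counts. COL8A1 and COL5A1 lie between 1.48 and 2.18 in all 3 lines, and COL4A1, COL4A2, COL6A1 and COL6A2 lie between -2.78 and -0.99.

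HuR is known to bind U-rich stretches in 3′ untranslated regions, so the 30-base stretch with the most T was taken from the 3′ UTR of each member in GENCODE 29 transcripts (GRCh38). The 5 members higher in the precipitate are shown first, then 2 of the lower ones, as DNA letters 5′ to 3′ with runs of 3 or more T in capitals.

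COL8A1: TTTctaTTTgTTTTgaTTTTcTTTTTctgt
COL24A1: ttagaTTTcTTTgTTTTTgTTTTaTTTTTT
COL5A1: TTTTTgattcgctctagacTTTTTTTTTTT
COL15A1: ttgttgtaaatattacagTTTTTTTTTTTT
COL28A1: tgtgattctgattccTTTaattcctgttgt
COL18A1: atacTTTcctgtatagttcacgTTTcatgt
COL4A2: aTTTTggtgcttattcttaacttattacct

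The stretches of COL8A1 (chr3:99796933-99796962), COL24A1 (chr1:85729744-85729773), COL5A1 (chr9:134843137-134843166) and COL15A1 (chr9:99069964-99069993) hold 22, 23, 20 and 20 T. That of COL18A1 holds 14 and that of COL4A2 holds 16. COL28A1 holds 16, no more than COL4A2, although it was higher in the precipitate. The lower members COL4A1 and COL1A2 hold 20 each, and COL6A1 holds 19, as many as or close to COL5A1 and COL15A1. The richest stretch of the family among expressed members, 26 T in COL1A1, belongs to a gene that was not called. Over the 28 members tested the median was 19, over the 5 higher 20 and over the 10 lower 16.5, against 18 over 12978 genes tested.

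Across 25 members, the number of T in that stretch and the log2 ratio of precipitate to input had a Spearman correlation of 0.71 in shControl and 0.58 in shADAR1, and of 0.48 across 22 members in shHuR. Across all genes it was 0.72, 0.68 and 0.56, close to the values over members. For GC content of the transcript the correlation over members was -0.69, -0.47 and -0.17, and over all genes -0.51, -0.33 and -0.19. Genes of 1 library share its depth and base composition, and T content and GC content are linked, so these are descriptions. The 5 higher members had a median GC content of 47.6% and the 10 lower ones of 62.8%, with COL5A1 (60.3%) an exception among the higher and COL14A1 (46.7%) among the lower.

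**Figure D5:**
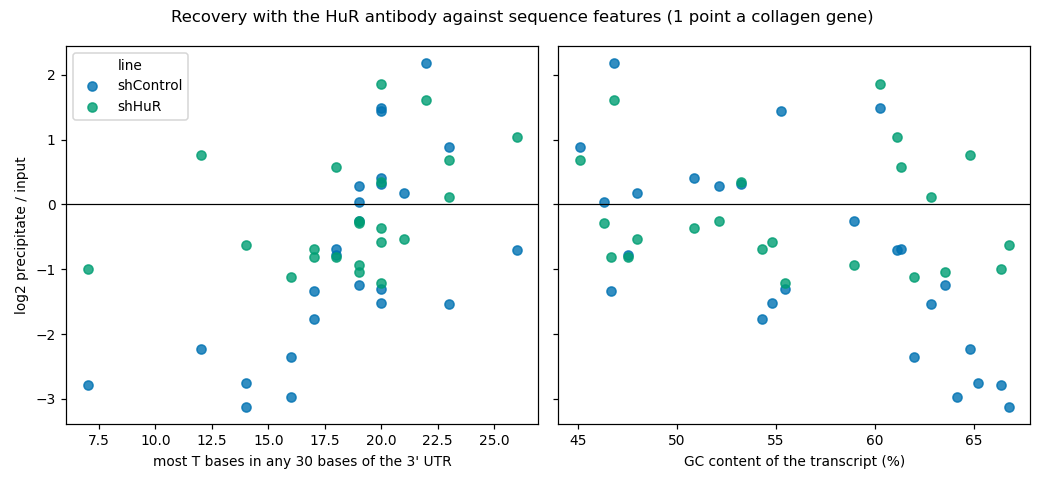
Log2 ratio of HuR precipitate to input (vertical axis) of the collagen genes with enough counts in shControl and shHuR cells, against the most T in any 30 bases of the 3′ UTR (left) and the GC content of the transcript (right), 1 point a gene. In shControl the points rise with T (Spearman 0.71) and fall with GC (-0.69), and the fall with GC is flatter in shHuR (-0.17).

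The AU-rich nonamer TTATTTATT occurred in the 3′ UTR of 7 of 44 members (15.9%), against 7.68% of 18276 protein-coding genes. Among the 28 members tested in the precipitates it occurred in 3 (10.7%), against 8.92% of the genes tested. It was read on the transcript strand only. Among expressed members it was found once each in COL8A1, COL3A1, COL12A1 and COL10A1. It is shown in capitals with its flanks.

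COL8A1: cttccaacTTATTTATTggttgtca
COL3A1: aattccagTTATTTATTtccaaaat
COL12A1: gccttataTTATTTATTtctgaaac
COL10A1: gagatataTTATTTATTtatgcact

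Of these, COL8A1 (chr3:99798568-99798592) was higher in the precipitate, COL3A1 (chr2:189011868-189011892) and COL12A1 (chr6:75084364-75084388) were not called, with log2 fold changes of 0.14 and -0.14, and COL10A1 had at most 1 count in any precipitate. The shorter ATTTA was in 72.7% of members and 65.4% of protein-coding genes. A match describes the letters and shows no binding.

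Recovery in the knockdown lines was set against shControl as a difference of log2 ratios, called at 1.5-fold. Among members with a mean recovery of at least 2-fold over the lines compared, none of 4 was called in shADAR1, against 9.81% of genes higher and 14.8% lower. None of 2 was called in shHuR, against 22.3% higher and 29.4% lower. These counts depend on the correction, since with GC and length trends removed COL5A1 (-0.61) and COL15A1 (-0.66) were lower in shADAR1 and COL5A1 in shHuR, and DESeq2 size factors also gave 1 lower in shHuR. COL8A1 had a log2 ratio of 2.18 in shControl, 2.04 in shADAR1 and 1.61 in shHuR, a difference of -0.57 (interval -0.69 to -0.45) in shHuR, just under 1.5-fold. COL5A1 had 1.48, 1.77 and 1.86, and this order turned once GC and length trends were removed, with 2.72 in shControl and 1.54 in shHuR (a difference of -1.17).

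Without the condition on recovery, 7 of 24 members were higher and 0 lower in shADAR1, against 19.7% and 14.2% of all genes. In shHuR, 9 of 22 were higher and 3 lower, against 39.4% and 23.5%. COL7A1 had 58 and 480 counts in the shControl precipitate and input and 179 and 249 in shHuR, so its log2 ratio went from -2.23 to 0.77. COL18A1 went from -3.12 to -0.63, COL6A2 from -2.78 to -0.99 and COL1A1 from -0.70 to 1.04. These are GC-rich mRNAs, of 61.1% to 66.8%. Other GC-rich members differed less, COL6A1 (63.5%) by 0.21 and COL5A1 (60.3%) by 0.37. Members with less GC also rose, COL4A6 (54.3%) by 1.07 and COL1A2 (54.8%) by 0.93. The part of GC content was not tested. With trends over GC content and length removed, the differences of COL7A1, COL18A1, COL6A2 and COL1A1 (3.00, 2.49, 1.79 and 1.74) became 0.82, 0.37, -0.11 and 0.32. The counts of differences in shHuR became 1 higher and 9 lower, and those in shADAR1 2 higher and 5 lower. The shares above are of differences without this correction, and those of all genes with it are not given here. These corrected counts thus describe the members only.

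The genes that process collagen were read from lists by role. Their counts stand against the shares over all genes, which were 8.31% higher and 7.71% lower in the RNA-seq pair, 8.94% and 10.6% in the shADAR1 input, 12% and 15.9% in the shHuR input, and 30.3% and 31.3% in the edgeR test of the precipitates. Of 19 genes for folding and modification, all with enough counts, 2 were called higher and 1 lower in the RNA-seq knockdown, 5 and 1 in the shADAR1 input, and 8 and 2 in the shHuR input. PLOD2, the lysyl hydroxylase of the telopeptides, had 38241 and 14883 counts in the RNA-seq pair (-1.75) and 1767, 4663 and 22554 in the inputs of shControl, shADAR1 and shHuR (1.87 and 3.77). P3H2, a prolyl 3-hydroxylase that acts on type IV collagen, had 615, 3134 and 4041 counts in the inputs (2.82 and 2.81), in the direction of COL4A1. P4HA1, a catalytic subunit of prolyl 4-hydroxylase, had 2236, 4391 and 4565 (1.44 and 1.13).

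Over the lines, edgeR placed 6 of these 19 higher and 8 lower in the HuR precipitate, against 30.3% and 31.3% of all genes. P4HA1 had a log2 fold change of 2.78 (edgeR adjusted p = 1.62e-05), and its partner subunit P4HB stood at -2.12. SERPINH1, the collagen chaperone HSP47, was higher (1.85). Of 11 genes for collagen mRNA binding and procollagen export, 5 were higher and 4 lower in the precipitate, against the same shares, among them the coat GTPases SAR1A (3.84) and SAR1B (3.56). LARP6, which binds the 5′ stem-loop of type I and III collagen mRNAs, was lower (-1.70). None of those 11 was called in either ADAR1 comparison, and SAR1B (1.67) was the one called in the shHuR input.

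Of 21 genes for propeptide cleavage and crosslinking, 14 had enough counts in the RNA-seq pair, with 0 higher and 3 lower (LOXL2, LOXL4 and DCN). In the shADAR1 input 7 of 16 were higher and 1 lower, and in the shHuR input 4 of 15 higher and 3 lower. Among these, TNXB (18 counts in shControl and 54 in shADAR1) could be called only as higher. ADAMTS3 (66 in shControl and 23 in shHuR) could be called only as lower. LOX, the main lysyl oxidase, had 6490, 15117 and 21554 counts in the inputs (1.69 and 1.83) and 0.07 in the RNA-seq pair. LOXL2 stood at -1.90 in the RNA-seq pair and at 1.36 and 1.44 in the inputs. PCOLCE, the enhancer of procollagen C-proteinase, had 3626, 1491 and 109 counts in the inputs (-0.81 and -4.93). In the precipitate 1 of 17 tested was higher and 9 lower, against 30.3% and 31.3% of all genes.

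Of 11 collagen receptors, 8 had enough counts in the RNA-seq pair, with 2 higher and 1 lower. ITGA11, the integrin chain that binds type I collagen on fibroblasts, had 101 and 2955 counts in the RNA-seq pair (4.46), and 1633 and 4170 in the shControl and shADAR1 inputs (1.82). DDR1 was higher (1.22) and DDR2 lower (-1.38) in the RNA-seq pair. Each input comparison gave 1 lower, ITGA10 (55, 6 and 1 counts in the inputs), with 2 of 9 higher in shADAR1 and 1 of 9 in shHuR, and 2 of 10 receptors were higher and 3 lower in the precipitate. Of 7 collagenases, 4 had enough counts, and among them MMP1 (15367 and 68102 counts, 1.76) and MMP2 (3487 and 15606, 1.77) were higher in the RNA-seq knockdown. MMP1 had 566, 552 and 4512 counts in the inputs, higher in shHuR only (3.09), and CTSK was the other collagenase called higher, in both inputs (1.07 and 1.02). In the precipitate 1 of 4 collagenases was higher and 2 lower. In the edgeR test over both ADAR1 pairs, no gene of the 5 lists passed an adjusted p of 0.05.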

How the data were processed

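The libraries were made from total RNA with the KAPA RNA HyperPrep kit, per the labels' protocols. The aligner, the annotation release, filters and the strand setting of counting are not given in the sources used here. The deposited expected counts are whole numbers per gene from RSEM 1.2.3 on hg19 (also named GRCh37 for the precipitation experiment), per the submitters' processing notes, and entered the models as they were. The authors deposited FPKM values (scaled by transcript length and depth) for the RNA-seq pair, which served as an alternative as log2(FPKM + 0.1). DESeq2 is named in those notes for the RNA-seq, and no fold changes of the authors were used. Groups came from sample titles, and each column was matched by its header.

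Symbols and transcript features came from GENCODE 29 (GRCh38), with 1 transcript a gene, complete and principal where one was marked. All 44 genes had one, and 32 were in the RefSeq promoter table. Coordinates are GRCh38, not the authors' build. Counts were scaled by TMM, over the RNA-seq pair, over the 3 inputs for their levels, and over 6 libraries for recovery and the levels of precipitates. Ratios used a prior count of 2. Intervals are exact conditional binomial at 95%, and the interval of a difference in recovery combines the counting errors of its 4 libraries. The tests used edgeR 4.0.16 (R 4.3.3) with its low-count filter and Benjamini-Hochberg adjustment over all genes, leaving 1 residual degree of freedom for knockdown and 2 for precipitation. They were run on simulated counts with less spread between libraries than was fitted here (common dispersion 0.150 for knockdown and 0.100 for precipitation). That check therefore does not show how the tests perform on these data. DESeq2 1.42.0 was an alternative. The pairing of libraries comes from the labels, as both libraries of a block share an experiment or line.

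The genes and lists were chosen with earlier results of these data known. Genes with at least 50 counts in a library are named with values, the others by number and range, and list genes only where called or past 0.05 in an edgeR test.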

Additional observations from a re-analysis of the deposited data

Results flagged for a closer look

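A ratio was set apart here where it was at least 1.5-fold in opposite directions on both sides, with counting intervals on either side of 0. By that limit the ADAR1 knockdown gave opposite ratios in the RNA-seq pair and the input pair in 3 genes, and smaller changes of sign in others such as COL5A2 (-0.48 and 1.63). COL9A2 had a log2 ratio of 1.74 in the RNA-seq pair and -0.87 in the inputs, COL3A1 had -0.77 and 0.93, and COL14A1 had -1.48 and 2.57. By the same limit the ratio of HuR precipitate to input was opposite between lines in 2 genes, with COL27A1 (-0.69 in shControl and 0.58 in shHuR) just short of it. COL1A1 stood at -0.70 in shControl and 1.04 in shHuR, and COL7A1 at -2.23 in shControl and -0.89 in shADAR1 against 0.77 in shHuR. With 1 library on each side, none of these differences was tested. The shares of all genes past the same limit are not given here, so these counts describe the members and no trait particular to collagens.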

How the results depend on the processing

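Removing trends over GC content and transcript length gave 2 members lower in the RNA-seq knockdown (from 1), 6 lower in the shHuR input (from 10), and 1 higher and 8 lower in the shHuR precipitate (from 3 and 3). Of all genes, 5.61% were then lower in the RNA-seq knockdown and 13.3% in the shHuR input. In the shHuR precipitate 21.5% were higher and 26.6% lower. The removal of trends also changed single members. It turned COL6A1 in the shControl precipitate from -1.25 to 0.24. Differences in recovery became 2 higher and 5 lower in shADAR1 (from 7 and 0) and 1 higher and 9 lower in shHuR (from 9 and 3), with 2 and 1 lower among the recovered members (from 0). Scaling by total counts shifted the median of all genes in the precipitates by -0.85 to -0.99. It gave 1, 1 and 0 members higher in the shControl, shADAR1 and shHuR precipitates (from 3, 5 and 3), 14 lower in both shADAR1 and shHuR (from 7 and 3), and 5 lower for recovery in shHuR. In edgeR, where this scaling was chosen after seeing the data, it gave 2 members higher and 21 lower among 28 (from 5 and 10). Of all 16232 genes it gave 2769 higher and 8287 lower. Among members it reversed COL1A1 (-0.77), COL6A3 (-0.60), COL3A1 (-0.82) and COL4A5 (-0.84), none of them called with TMM. DESeq2 size factors gave 1 lower among recovered members and 5 lower among all for shHuR. With no minimum count, 6 were lower in the shADAR1 input, 12 higher in the shHuR input, 6, 9 and 8 higher in the 3 precipitates and 10 lower in shHuR. Recovery then differed in 12 higher and 2 lower members in shADAR1, with 1 lower among recovered ones, and in 15 higher and 7 lower in shHuR, with 2 higher. The edgeR precipitation test with no replicate block gave 2 higher and 2 lower. Without the shControl line it gave 4 higher and 6 lower, without shADAR1 3 and 8, and without shHuR 5 and 12. Of all genes, 3590 were higher and 3020 lower among 15342 with no block, and 4346 and 4084 among 15450 without shControl. Without shADAR1 they were 2831 and 3589 among 15613, and without shHuR 5383 and 5863 among 15599. The knockdown test called no member with or without the replicate block. Shares of all genes are not given for differences in recovery under other settings, for total-count scaling outside edgeR, or with no minimum count. Those counts describe the members only, and with no minimum they include genes under 50 counts in both libraries. The causes of the changes between settings were not tested. Chains under 50 counts, such as COL10A1 in the inputs, were not resolved at this depth.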
